A study of Mus musculus with 6 samples.

Results

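Expression of 10 genes of the adherens junction and the tight junction was examined with Affymetrix arrays in embryonic stem cells of the mouse. The genes are Cdh1, Epcam, Cldn3, Cldn4, Cldn6, Cldn7, Ocln and Tjp1, which build the junctions, and Esrp1 and Grhl2, which regulate epithelial transcripts. Members were all probe sets whose annotated symbol is 1 of these 10, which gave 18 probe sets of the 45037 tested. At the gene level, each gene was represented by whichever of its probe sets had the highest average over the 6 arrays, and the 10 genes stood among 18193. The series holds 6 arrays, 3 from wild-type cells and 3 from a group labelled Dido3deltaCT, in which the protein Dido3 lacks its C-terminal part. Both groups were grown in parallel in the presence of leukemia inhibitory factor (LIF), under which such cells self-renew. The labels give no second allele or agent, and they do not say how many cell lines each group holds. P-values therefore measure the spread between the 3 cultures of a group, which may all come from 1 line.

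Epithelial cells hold together through adherens junctions, in which E-cadherin on neighbouring cells binds and is tied to actin by catenins, and through tight junctions, in which claudins and occludin seal the space between cells and bind the scaffold ZO-1. Embryonic stem cells kept in LIF grow as compact colonies and are known to depend on E-cadherin for that shape. Snail and Zeb proteins repress the E-cadherin gene when cells become mesenchymal, while Grhl2 and Esrp1 maintain the epithelial state, Grhl2 by activating transcription and Esrp1 by directing splicing.

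The arrays matched their tissue label: the 10 stem cell markers, Pou5f1, Nanog and Sox2 among them, averaged between 11.11 and 11.26 on every array, on the log2 scale of the deposited values. That mean covers 5 markers that lay higher and 5 that lay lower in truncated arrays, 0 of which passed by limma. The groups did not overlap for 7 of the 10, 2 of these lower in truncated arrays, against 22.4% of all genes in either direction and 10.9% lower. For Dido1, the gene of Dido3, 2 of 5 probe sets fell and 3 did not pass, of which 1437182_at lay 0.68 higher without overlap (limma adjusted p = 0.0721); 1456405_at was at 8.16, 8.42 and 8.55 in wild-type and 6.74, 7.27 and 6.62 in truncated replicates 1, 2 and 3 (limma adjusted p = 0.0130 over all probe sets). The position of the probe sets relative to the removed part was not analysed here. The Y-linked gene Eif2s3y lay between 8.43 and 8.69 in wild-type and between 3.43 and 3.86 in truncated arrays, so the presence of Y-linked RNA and the truncation cannot be told apart in any difference given here. The mean of 19 fibroblast markers, 16 of them above the median probe set, was 8.67, 8.48 and 5.61 in wild-type replicates 1, 2 and 3 and 8.05, 6.84 and 8.01 in truncated replicates 1, 2 and 3. It did not separate the groups (exact permutation p = 1, two-sided), but wild-type replicate 3 and truncated replicate 2 held less fibroblast RNA than the other 4 arrays. Poly-A controls added to the RNA were high on exactly those 2, at 12.10 and 12.46 against 6.12 to 7.85; the pair is called the high-control arrays and the other 4 the low-control arrays. In bulk samples of this kind, fewer cells of a type and less RNA per cell cannot be told apart. The log2 difference between 3' and 5' control probe sets of beta-actin was larger in wild-type arrays (1.07 ± 0.11) than in truncated ones (0.85 ± 0.02; SD, n = 3; p = 0.1 by exact permutation, which can go no lower for 3 against 3), and its part in the results was not tested.

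In the truncated cells 1 of the 10 genes passed the threshold, the splicing regulator Esrp1, which fell 2.26-fold. The adhesion gene Cdh1 and the claudin genes Cldn6 and Cldn7 lay lower by similar amounts, 1.77-fold to 1.79-fold, in every truncated array than in any wild-type array, without passing. Epcam, Tjp1 and Ocln differed by 0.22 log2 units or less by their representative probe sets, while a second probe set of Ocln lay 0.55 higher without passing. Cldn3 and Grhl2 lay slightly higher. The threshold was an adjusted p of 0.05 from limma, with Benjamini-Hochberg adjustment over all genes or all probe sets. The 1 call among 10 genes stands beside a background of 4.67% of all genes called in either direction and 1.97% called lower. The groups did not overlap for 4 of the 10 genes, all of them lower in truncated cells, against 22.4% of all genes in either direction and 10.9% lower. The median difference of the 10 genes was −0.33 log2 units, against 0.01 over all genes. Of the 18 probe sets 0 passed when the adjustment ran over all probe sets, where 2.80% did and 1.12% were called lower; 6 had an unadjusted limma p under 0.05, against 15.2% of all probe sets, and 7 had groups that did not overlap, against 18.6%. Values lay above the median probe set for 15 of the 18, and no filter on low values was used.

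**Figure D1:**
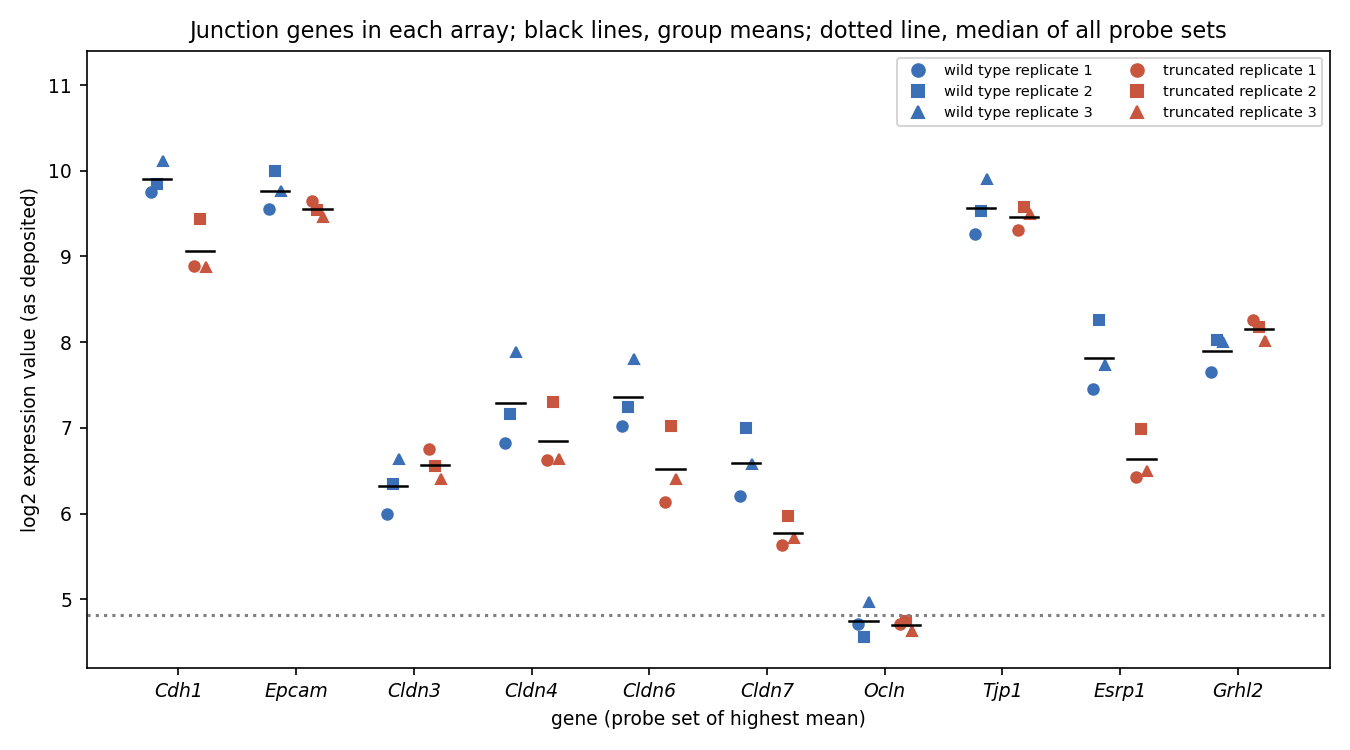
Log2 expression values as deposited (vertical axis) of the probe set representing each of the 10 junction genes (horizontal axis), 1 point per array, with replicates 1, 2 and 3 as circles, squares and triangles; black lines are group means and the dotted line is the median of all probe sets, 4.82. For Cdh1, Cldn6, Cldn7 and Esrp1 every truncated array lies below every wild-type array, and for the other 6 genes the groups overlap.

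Cdh1 encodes E-cadherin, the cell adhesion molecule at the core of the adherens junction, and was read by 1 probe set, 1448261_at. Its log2 values were 9.75, 9.85 and 10.11 in wild-type replicates 1, 2 and 3 and 8.88, 9.44 and 8.88 in truncated replicates 1, 2 and 3. The groups did not overlap, and within each group the high-control array was the highest. The means were 9.90 ± 0.18 and 9.07 ± 0.32 (SD, n = 3 each), a difference of −0.84 (SE 0.18; 95% interval −1.27 to −0.41). This just missed the threshold over all genes (limma adjusted p = 0.0522) and over all probe sets (0.0653). Cdh1 passed in 8 of 17 alternatives, with a limma adjusted p from 0.00679 to 0.208 over all of them. Cdh1 passed at 0.00679 when the high-control arrays were a block, at 0.0119 when the fibroblast marker mean was a covariate, and in the low-control arrays alone at 0.0222, where the difference was −0.92; in the remaining pair the difference was −0.67. Of the 6 fits that each left out 1 array, the one without truncated replicate 2 passed (0.0286; difference −1.02). In all 17 the truncated cells were lower. In the 6 fits that each left out 1 array, the non-overlap of the groups fixes that direction.

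The catenin genes Ctnna1, Ctnnb1 and Ctnnd1 did not pass. Ctnna1, the gene for alpha-catenin, differed by −0.14 (limma adjusted p = 0.612), Ctnnb1, the gene for beta-catenin, by 0.11 (0.678) and Ctnnd1, the gene for p120-catenin, by −0.05 (0.943). The other probe sets of Ctnnb1, 1430533_a_at and 1450008_a_at, lay higher by 0.39 and 0.26 without overlap and did not pass (limma adjusted p = 0.187 and 0.312). For the other probe sets of Ctnna1 and Ctnnd1 the groups overlapped. Of 17 further genes of the adherens junction, catenins and nectins included, 1 rose, 0 fell and the other 16 stayed short of the threshold, with a median difference of 0.06. Of all genes, 4.67% passed. An unadjusted p under 0.05 was found for 6 of the 17, against 18.5% of all genes. The gene that rose was Nectin2, an immunoglobulin-like adhesion molecule, at 7.40, 7.48 and 7.47 in wild-type and 7.81, 7.97 and 7.91 in truncated replicates 1, 2 and 3 by its probe set 1417703_at (difference 0.44, limma adjusted p = 0.0396). That call held without wild-type replicate 3 and was lost without any one of the other 5 arrays (0.0956 to 0.146). Its other probe set, 1424456_at, moved the opposite way, from 7.72 ± 0.03 to 6.75 ± 0.27 (SD, n = 3 each; limma adjusted p = 0.0211), so these data give Nectin2 no single direction. Both of its probe sets passed and neither pair of groups overlapped.

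Claudins are the membrane proteins whose loops form the paracellular seal, and 0 of the 4 claudin genes passed. Cldn6 and Cldn7 lay lower in the truncated arrays without overlap, Cldn4 lay lower with overlap, and Cldn3 lay higher with overlap. Differences between the claudin genes were not tested. Cldn6, a claudin of early embryonic epithelia, was at 7.03, 7.24 and 7.80 in wild-type and 6.14, 7.02 and 6.40 in truncated replicates 1, 2 and 3. The highest truncated array lay just below the lowest wild-type array, and the high-control array was the highest of its group on each side. The difference was −0.84 (SE 0.28; 95% interval −1.49 to −0.18) and did not pass (limma adjusted p = 0.161, and 0.0108 to 0.444 over 17 alternatives, of which 4 passed). The block for the high-control arrays gave 0.0108, the fibroblast covariate 0.0201 and the low-control arrays alone 0.0458.

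Cldn7, a claudin that also sits along the basolateral membrane and binds Epcam, was at 6.21, 6.99 and 6.58 in wild-type and 5.64, 5.97 and 5.71 in truncated replicates 1, 2 and 3. All truncated values lay below the wild-type values, and the wild-type arrays spread more widely. The difference was −0.82 (SE 0.20; 95% interval −1.31 to −0.34), with a limma adjusted p of 0.0776 (0.0177 to 0.274 over 17 alternatives, 4 of which passed). One of the 4 left out wild-type replicate 1, the lowest wild-type array (−1.01, adjusted p = 0.0457).

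Cldn4, a claudin of tight epithelia, was at 6.83, 7.16 and 7.89 in wild-type and 6.62, 7.30 and 6.64 in truncated replicates 1, 2 and 3. The groups overlapped, and the 2 arrays with little fibroblast RNA were the highest of all 6. The difference was −0.44 (SE 0.30; limma adjusted p = 0.537), and it was −0.14 without wild-type replicate 3, −0.67 without wild-type replicate 1 and −0.66 without truncated replicate 2.

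Cldn3, the neighbour of Cldn4 on chromosome 5, was read by 4 probe sets, all of them of types that can match several transcripts. Its representative, 1460569_x_at, was at 5.99, 6.35 and 6.64 in wild-type and 6.75, 6.56 and 6.40 in truncated replicates 1, 2 and 3, and the groups overlapped. The 4 probe sets differed by 0.18 to 0.46, each of them higher in truncated cells, and none passed (limma adjusted p 0.137 to 0.677). Only in 1434651_a_at did the groups not overlap, with means of 6.21 ± 0.17 and 6.66 ± 0.17 (SD, n = 3 each). In the high-control pair, 3 of the 4 probe sets were lower in the truncated array (−0.30 to −0.08), and in the other 4 arrays all were higher (0.33 to 0.53).

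The sequences before the start sites of 3 of these claudin genes and of Epcam are given here because, by the representative probe sets, Cldn6 and Cldn7 lay lower without overlap while the groups overlapped for Cldn4 and Epcam. They are from RefSeq, build GRCm38.p6, read 5′ to 3′ on the strand of the gene, and capitals mark the E-box CAGGTG or its reverse complement CACCTG, the letters that Snail and Zeb proteins are known to bind. Bases inside the gene's own span are not shown.
Cldn6, chr17:23679115-23679347, plus strand: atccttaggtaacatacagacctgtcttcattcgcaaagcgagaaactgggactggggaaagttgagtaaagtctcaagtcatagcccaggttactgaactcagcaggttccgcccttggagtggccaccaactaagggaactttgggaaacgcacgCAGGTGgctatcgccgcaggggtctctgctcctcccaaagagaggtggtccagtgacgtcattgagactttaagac
Cldn7, chr11:69964529-69964778, plus strand: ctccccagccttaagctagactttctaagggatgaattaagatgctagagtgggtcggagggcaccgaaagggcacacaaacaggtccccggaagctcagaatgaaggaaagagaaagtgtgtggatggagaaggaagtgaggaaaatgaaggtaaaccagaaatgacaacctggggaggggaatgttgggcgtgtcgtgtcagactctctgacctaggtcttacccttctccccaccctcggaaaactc
Cldn4, chr5:134946935-134947184, minus strand: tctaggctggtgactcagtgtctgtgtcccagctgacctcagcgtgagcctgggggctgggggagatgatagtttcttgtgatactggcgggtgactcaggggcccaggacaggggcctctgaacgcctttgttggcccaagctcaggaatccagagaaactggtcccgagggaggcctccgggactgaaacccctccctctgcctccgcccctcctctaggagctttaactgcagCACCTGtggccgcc
Epcam, chr17:87635729-87635978, plus strand: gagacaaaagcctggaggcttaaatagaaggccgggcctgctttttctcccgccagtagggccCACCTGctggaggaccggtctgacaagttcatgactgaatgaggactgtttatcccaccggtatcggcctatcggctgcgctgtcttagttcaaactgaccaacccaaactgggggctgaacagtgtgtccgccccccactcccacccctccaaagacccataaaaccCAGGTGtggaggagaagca
The table of promoters held 9 start sites of 7 of the 10 genes, Epcam, the 4 claudin genes, Ocln and Tjp1. In the 250 bases before each start, the E-box letters on either strand were found for 5 of the 9 start sites, against 17.2% of 32851 windows of the same length over all genes. Epcam held 2 E-boxes, 187 and 19 bases before its start, Cldn6 held 1 at 93 bases and Cldn4 held 1 at 14 bases. The upstream start of Cldn7 held none, and a second start of Cldn7 inside the gene held 2, at 97 and 57 bases. A second start of Ocln held 2, at 213 and 68 bases. The letters AACNGGTT on either strand, a form of the site of Grhl factors, were in 0 of the 9 windows and in 1.79% of all windows. The GC box GGGCGG, on either strand, was in 8 of the 9 windows and in 32.7% of all. E-boxes were thus present before Cldn6 and before the second start of Cldn7, genes whose groups did not overlap. They were also present before Cldn4, Epcam and the second start of Ocln, whose groups overlapped by the representative probe sets. The other start of Ocln held 0, as did the upstream start of Cldn7. The windows of the 10 genes held 51.2% to 69.2% G or C, and the windows of all genes were not matched for this. Those of Ocln overlapped in part, and genes with a second start were counted again. The shares therefore do not show an enrichment, and a match describes letters only.

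Epcam encodes a surface glycoprotein of epithelia and stem cells that binds claudins. Its representative 1416579_a_at was at 9.55, 9.99 and 9.76 in wild-type and 9.65, 9.54 and 9.46 in truncated replicates 1, 2 and 3, and the groups overlapped. The difference was −0.22 (SE 0.13; 95% interval −0.53 to 0.09; limma adjusted p = 0.468). The second probe set, 1447899_x_at, differed by −0.21 without overlap (6.67 ± 0.06 and 6.46 ± 0.12, SD, n = 3 each; adjusted p = 0.367 over all probe sets). Both probe sets gave nearly the same difference, and the interval of the first leaves room for a fall of up to 0.53.

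Ocln encodes occludin, a membrane protein of the tight junction, and both of its probe sets lay near the median probe set. The representative, 1440220_at, lay between 4.56 and 4.96 in all 6 arrays (difference −0.05, limma adjusted p = 0.909). The other, 1448873_at, was at 4.07, 4.08 and 4.996 in wild-type and 4.86, 4.98 and 4.97 in truncated replicates 1, 2 and 3. Wild-type replicates 1 and 2 stood apart below the other 4 arrays (difference 0.55; adjusted p = 0.361 over all probe sets). It passed in 3 of 15 alternatives, with an adjusted p from 0.00905 to 0.647 over all of them. The 3 were the fit without wild-type replicate 3 (0.86, adjusted p = 0.00905), the low-control arrays (0.84, 0.0325) and the fibroblast covariate (0.57, 0.0295).

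Tjp1 encodes ZO-1, the scaffold that links claudins and occludin to actin. It was at 9.26, 9.53 and 9.91 in wild-type and 9.30, 9.58 and 9.49 in truncated replicates 1, 2 and 3. The groups overlapped almost wholly. The difference was −0.11 (SE 0.17; 95% interval −0.52 to 0.30; limma adjusted p = 0.824), and it was 0.00025 in the low-control arrays.

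**Figure D2:**
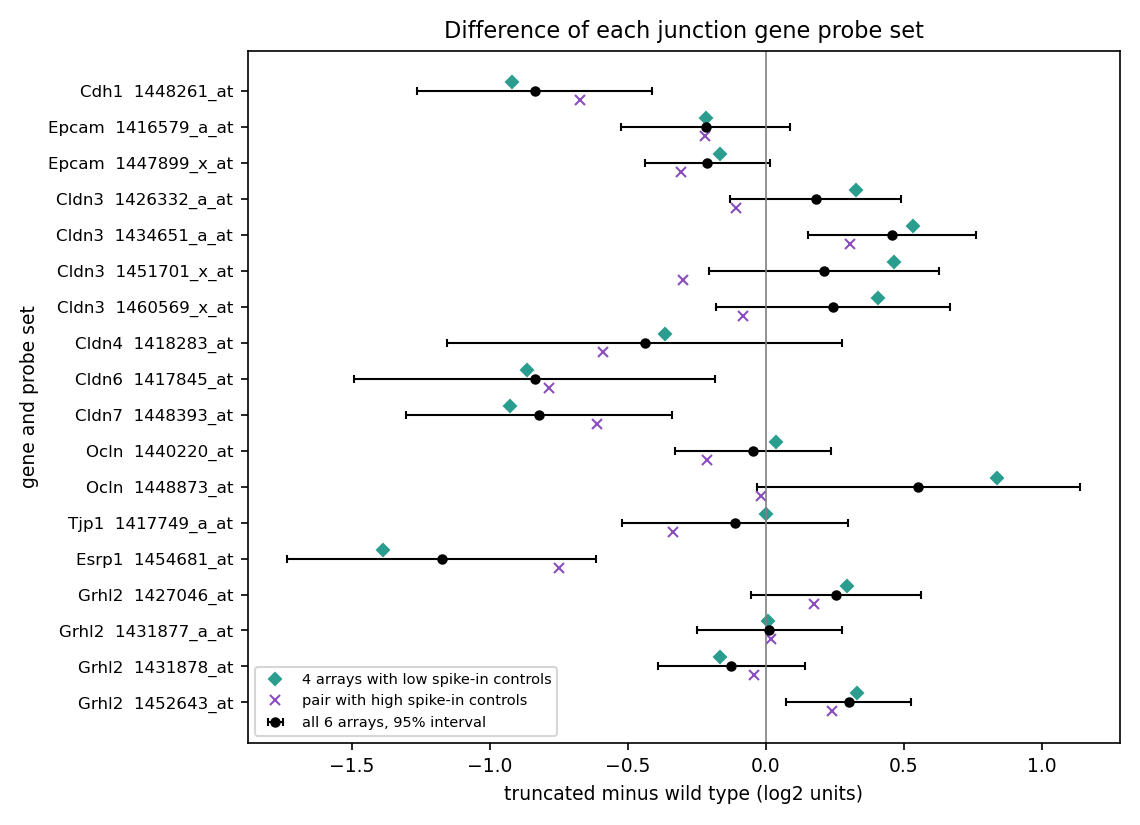
Difference of truncated minus wild type in log2 units (horizontal axis) for each of the 18 probe sets (vertical axis). Black points and bars are the difference over all 6 arrays with its 95% interval, diamonds the 4 low-control arrays and crosses the high-control pair. The intervals of Cdh1, Cldn6, Cldn7 and Esrp1 lie below 0, those of 1 probe set each of Cldn3 and Grhl2 lie above 0, and the intervals are not adjusted for the number of probe sets.

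Esrp1, an RNA-binding protein that directs epithelial splicing of transcripts such as those of Ctnnd1 and Cd44, was read by 1 probe set, 1454681_at. It was at 7.45, 8.26 and 7.74 in wild-type and 6.43, 6.99 and 6.50 in truncated replicates 1, 2 and 3. Every truncated array lay below every wild-type array, and the gap between the groups was wider than for Cdh1. The means were 7.81 ± 0.41 and 6.64 ± 0.30 (SD, n = 3 each), so Esrp1 fell by 1.17 (SE 0.24; 95% interval −1.74 to −0.61), with a limma adjusted p of 0.0434 over all genes and 0.0544 over all probe sets. It was −1.39 in the low-control arrays and −0.75 in the high-control pair. Of 18193 genes, 0.522% had a larger fall. The call held in 11 of 17 alternatives, with an adjusted p between 0.00852 and 0.185. It was lost at 0.0673 in the low-control arrays. Without wild-type replicates 2 and 3 in turn the adjusted p was 0.115 and 0.0524, and without truncated replicates 1, 2 and 3 in turn it was 0.185, 0.0581 and 0.176, with differences from −1.35 to −0.95. It held without wild-type replicate 1 (0.0465). The paralog Esrp2 differed by −0.28 (limma adjusted p = 0.450).

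Grhl2 encodes a transcription factor that activates Cdh1, Cldn4 and other epithelial genes, and its 4 probe sets showed no fall that passed. The representative, 1427046_at, was at 7.65, 8.02 and 7.9996 in wild-type and 8.26, 8.18 and 8.01 in truncated replicates 1, 2 and 3. The truncated arrays covered the upper part of the range, with overlap (difference 0.26, 95% interval −0.06 to 0.57; limma adjusted p = 0.378). For 1452643_at the means were 5.53 ± 0.06 and 5.83 ± 0.12 without overlap (SD, n = 3 each; adjusted p = 0.185 over all probe sets). The remaining 2 differed by 0.01 and −0.12, the last of them at values below the median probe set. So the gene with the largest fall among the regulators, Esrp1, and Grhl2 lay in opposite directions; the difference between the 2 genes was not tested.

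Arrays within a group also varied in these genes. The median SD of the 10 genes was 0.32 among wild-type and 0.18 among truncated arrays, against 0.15 and 0.13 over all genes. For 5 of the 10 genes, Cdh1, Cldn4, Cldn6, Ocln and Tjp1, wild-type replicate 3 and truncated replicate 2 were both the highest of their groups, as were 14.1% of all genes. Wild-type replicate 3 exceeded the mean of the other 2 wild-type arrays by 0.31 for Cdh1, 0.89 for Cldn4 and 0.67 for Cldn6, and truncated replicate 2 exceeded the mean of the other 2 truncated arrays by 0.56, 0.67 and 0.75. Esrp1 and Cldn7 did so only on the truncated side, by 0.52 and 0.30. Each group held 1 of these high-control arrays, and within the 4 low-control arrays the differences of Cdh1, Cldn6, Cldn7 and Cldn4 were −0.92, −0.86, −0.93 and −0.36. In the high-control pair they were −0.67, −0.79, −0.61 and −0.59. Of these 4 genes Cdh1 and Cldn6 passed in the low-control arrays, and Cldn7 (adjusted p = 0.137) and Cldn4 (0.217) did not.

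**Figure D3:**
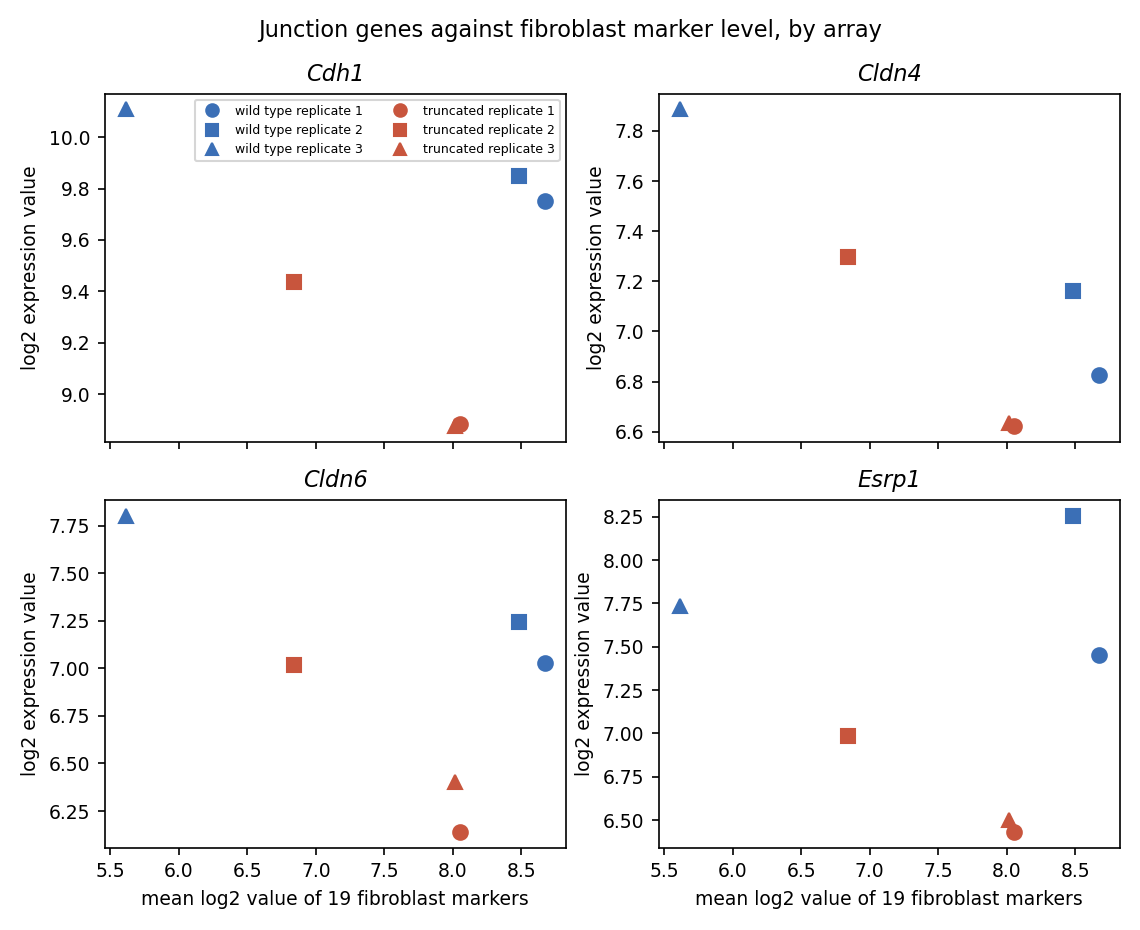
Log2 values of Cdh1, Cldn4, Cldn6 and Esrp1 (vertical axes) against the mean log2 value of 19 fibroblast markers (horizontal axes), 1 point per array. The truncated arrays at marker levels of 8.01 and 8.05 lie below the wild-type arrays at 8.48 and 8.67 for all 4 genes, and the arrays at 5.61 and 6.84 are the highest of their groups for Cdh1, Cldn4 and Cldn6.

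Patterns like those of Cdh1 and Esrp1 were looked for among 11727 other genes above the median probe set, by the root mean square difference of the centred log2 values over the 6 arrays. Nearest to Cdh1 were Creb1, a transcription factor that responds to cyclic AMP (0.066), Fpgt (0.078), Mettl23 (0.091) and Oard1 (0.096). All 4 had wild-type replicate 3 as the highest array and truncated replicate 2 as the highest truncated array, and their differences of −0.96 to −0.75 did not pass (limma adjusted p 0.0524 to 0.103). Over the alternatives the smallest difference was −0.15 for Creb1 and −0.088 for Mettl23, against −0.68 for Fpgt and −0.79 for Oard1. With each array left out, the smallest were −0.61 for Creb1 and −0.59 for Mettl23. Nearest to Esrp1 were the transcription factor Foxp1 (0.099), Fndc3c1, Ifitm1, an interferon-induced membrane protein, and Dnmt3a, a DNA methyltransferase (0.12 each). All 4 had wild-type replicate 2 as the highest array and fell by 1.06 to 1.29 (limma adjusted p 0.0181 to 0.0346). All 4 lost the call without wild-type replicate 2 and without truncated replicate 1 or 3, and Fndc3c1 also without truncated replicate 2 (0.0614 to 0.155). The smallest difference of Dnmt3a was −0.44 over the alternatives and −1.03 with each array left out. For Foxp1, Fndc3c1 and Ifitm1 the smallest over the alternatives were −1.07, −0.85 and −1.06. Among the 10 genes themselves, Cdh1 and Cldn6 were nearest to each other (0.16), as were Cldn7 and Esrp1 (0.19), and Cldn3 and Grhl2 (0.11). The nearness was computed on the same arrays as the differences and describes them only.

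Most other genes of the junction apparatus did not pass, as held for most of all genes, of which 4.67% were called. Of 28 measured genes of the tight junction outside the 10, 1 rose and 0 fell, which left 27 short of the threshold. The median difference of the 28 was −0.02, but only 16 of them lay above the median probe set. This limits what can be seen of a fall in the rest. An unadjusted limma p under 0.05 was found for 9, against 18.5% of all genes. The groups did not overlap for 9, of which 6 were lower in truncated cells, against 22.4% of all genes in either direction and 10.9% lower. The one that rose was Jam2, a junctional adhesion molecule, at 9.003, 9.70 and 9.39 in wild-type and 10.76, 10.54 and 10.85 in truncated replicates 1, 2 and 3 (difference 1.35, limma adjusted p = 0.0126). The call was lost without truncated replicate 1 (0.0856) or 3 (0.0791). Of its 4 other probe sets, 3 rose by 1.26 to 1.76 and 1, 1431417_at, fell by 2.14, all with adjusted p under the threshold. Of 13 polarity genes, which place the tight junction at the apical border, 0 passed by limma. An unadjusted limma p under 0.05 was found for 3 of them, against 18.5% of all genes. Their groups did not overlap for 6, of which 4 were lower, against the same 22.4% and 10.9% of all genes. Background for these lists is the same 4.67% of all genes called, with 2.70% called higher.

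Of 13 measured epithelial regulators and surface genes, 1 fell, 0 rose and 12 did not pass, with a median difference of −0.04. Of all genes, 1.97% were called lower. An unadjusted limma p under 0.05 was found for 5 of the 13, against 18.5% of all genes. The gene that fell was Prss8, the membrane serine protease prostasin, at 4.97, 5.63 and 5.49 in wild-type and 4.14, 4.47 and 4.34 in truncated replicates 1, 2 and 3 (difference −1.05, limma adjusted p = 0.0299). The call was lost without wild-type replicate 2 (0.107) and without truncated replicate 1, 2 or 3 (0.141, 0.0667 and 0.127). The truncated values lay under the median probe set of 4.82, so the size of that fall is against background. Ovol2, a repressor of the mesenchymal state, differed by 0.36 without overlap (limma adjusted p = 0.146). Its mean over the 6 arrays, 4.69, lay under the median probe set. Klf5, a factor of stem cells and epithelia, differed by 0.49 (adjusted p = 0.269), although its probe set 1451739_at rose by 1.15 (adjusted p = 0.0356 over all probe sets).

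Of 8 factors that repress Cdh1 or drive the mesenchymal state, 0 passed by limma and 1, Snai3, had an unadjusted p under 0.05 (18.5% of all genes did), and it lay lower, by 0.65. Snai1 was at 5.98, 5.56 and 4.71 in wild-type and 5.80, 4.84 and 5.63 in truncated replicates 1, 2 and 3 (difference 0.01, limma adjusted p = 0.997; 95% interval −0.88 to 0.89). Its lowest arrays were the 2 with little fibroblast RNA. Zeb1 differed by 0.16 (adjusted p = 0.759) and Zeb2 by −0.12 (0.609), the latter under the median probe set. Of 8 genes known to rise in mesenchymal cells 0 passed by limma and 0 had an unadjusted p under 0.05. Of all genes, 4.67% passed and 18.5% had such a p, so 0 of 8 does not set this list apart. Wild-type replicate 3, with the least fibroblast RNA, was the lowest wild-type array for all 8, as in Cdh11, which is also on the fibroblast list and was at 8.98, 8.48 and 3.65 in wild-type replicates 1, 2 and 3. The part of fibroblast RNA in the missing calls was not tested. Among the 8, Cdh2, the gene for N-cadherin, was at 5.97, 5.92 and 4.47 in wild-type and 5.53, 5.99 and 5.62 in truncated replicates 1, 2 and 3 (difference 0.26, adjusted p = 0.822), and its difference was −0.37 in the low-control arrays.

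Desmosome and simple keratin genes, which serve another kind of epithelial junction, held 3 falls and 0 rises among 13 genes. Of all genes, 1.97% were called lower and 2.70% higher. The median difference of the 13 genes was −0.30. Dsp, the gene for desmoplakin, was at 6.35, 7.502 and 8.28 in wild-type and 4.75, 5.29 and 4.44 in truncated replicates 1, 2 and 3, so Dsp fell by 2.55 (limma adjusted p = 0.0341). Krt8 fell by 1.90 and Pkp2, the gene for plakophilin, by 1.14 (limma adjusted p = 0.0163 and 0.0138). The other probe sets of these genes did not pass. For Dsp they differed by −1.91 and 0.06 (limma adjusted p = 0.0765 and 0.827). For Krt8 they differed by −1.68 and −1.29 (0.0656 and 0.0708). For Pkp2 they differed by −0.79, −0.52 and −0.26 (0.0638, 0.133 and 0.570). Dsp was not called without wild-type replicate 2 (0.137) or truncated replicate 1, 2 or 3 (0.158, 0.0687 and 0.152), Krt8 without truncated replicate 1 or 3 (0.0929 and 0.0908), and Pkp2 without wild-type replicate 2 or truncated replicate 1 or 2 (0.0728, 0.0883 and 0.0527). A difference between the lists was not tested. Markers of other embryonic cell types gave low means in both groups. The means were 4.80 to 5.04 for 7 trophoblast markers, 4.57 to 4.95 for 10 markers of extraembryonic endoderm and 4.63 to 4.76 for 4 of surface ectoderm, near the median probe set of 4.82, although single markers lay above it, 4 of 7 for trophoblast and 4 of 10 for extraembryonic endoderm. By limma 0 of these genes passed. An unadjusted p under 0.05 was found for 2 trophoblast markers, Eomes (−0.65) and Ascl2 (0.40), which lay in opposite directions, and for 0 of the others, against 18.5% of all genes.

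**Figure D4:**
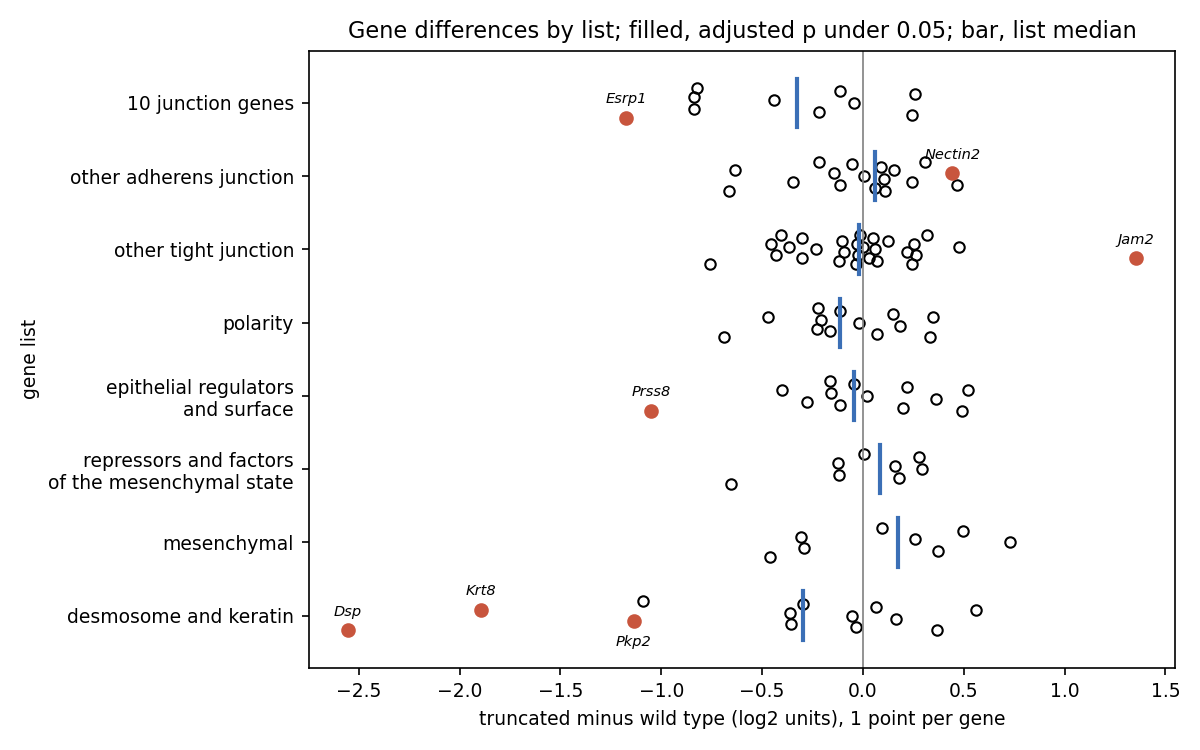
Difference of truncated minus wild type in log2 units (horizontal axis) for the genes of each list (vertical axis), 1 point per gene; filled and named points passed an adjusted p of 0.05 over all genes and blue bars are list medians. Most points of the adherens, tight junction and polarity lists lie within 0.5 of 0, and Dsp, Krt8, Esrp1, Pkp2 and Prss8 are the filled points on the left.

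**Figure D5:**
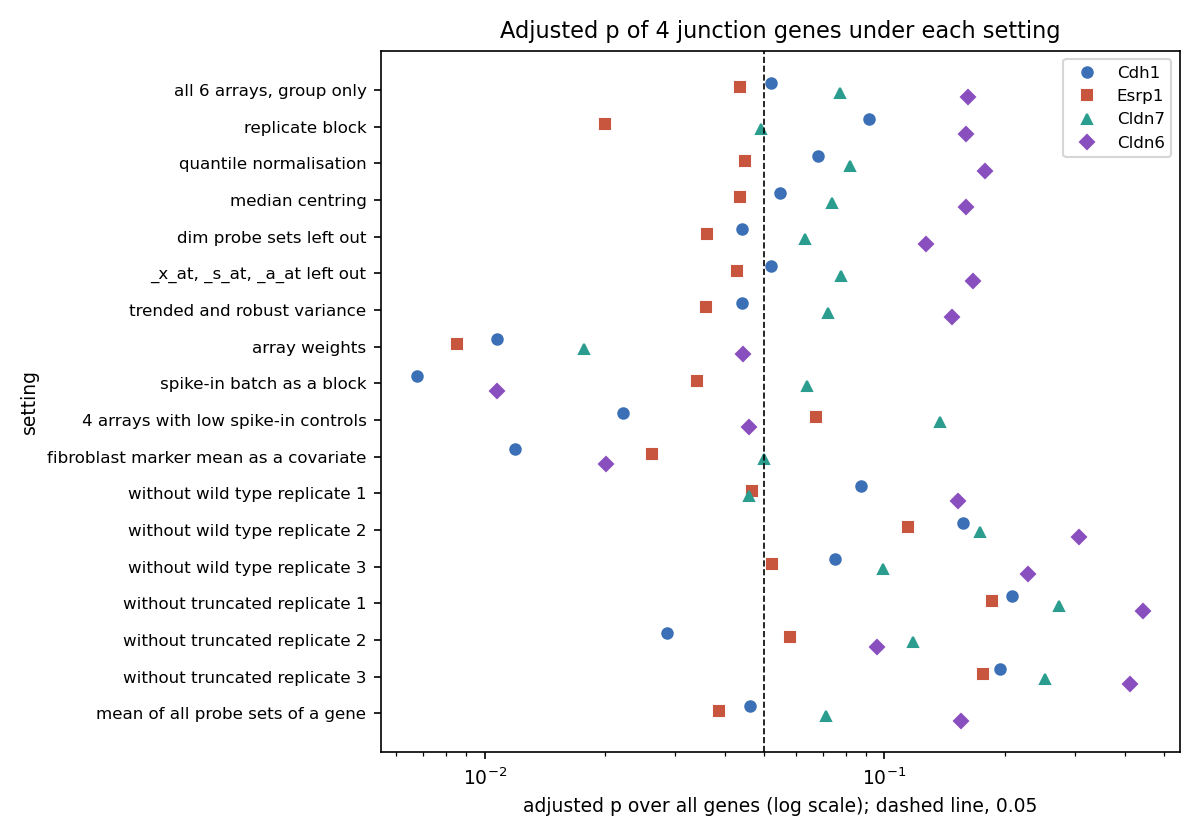
Adjusted p over all genes (horizontal axis, log scale) of Cdh1, Esrp1, Cldn7 and Cldn6 under the main setting and 17 alternatives (vertical axis); the dashed line is 0.05. Cdh1 ranges from 0.00679 to 0.208 and Esrp1 from 0.00852 to 0.185, and points of both lie on either side of the line.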

How the data were processed

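The deposited table holds 1 log2 expression value per probe set and array, as the authors computed it; the summarising and normalising steps are not stated in the labels or headers, and the scale follows from the range of the values. Array medians lay between 4.80 and 4.86, so no further scaling was applied. Precision is limited by the number of arrays. Of 45101 probe sets, 64 controls were left out. The platform annotation gave 1 symbol to 34945 probe sets and several to 932, and a gene was named only from the former; 34741 matched the RefSeq table of GRCm38.p6 by Entrez identifier, with 0 symbols changed.

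Groups came from the sample titles. Truncated was compared with wild type in limma 3.58.1 (R 4.3.3; lmFit, then eBayes), all tests two-sided, with the group as the only term, once over all probe sets and once over all genes. A difference is the truncated minus the wild-type mean in log2 units. Unless said otherwise, a representative probe set has its adjusted p over all genes, and any other probe set over all probe sets. High-control arrays were those whose 24 poly-A controls averaged over 2 log2 units more than on the median array.

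Named were all probe sets of the 10 genes and of Dido1, up to 4 genes past the threshold of each other list, a set of catenins, repressors and regulators, and the 4 genes nearest to Cdh1 and to Esrp1. Snai3, Cdh11, Eomes, Ascl2 and the Y-linked gene were named after their values were seen, and the promoter motifs were chosen after the values were seen. Members and lists were chosen with earlier results of these data known. Of 158 genes on the other lists 153 were measured. Alternatives were the replicate block, scalings, filters, variance models, terms for the high-control arrays and for fibroblast markers, and leaving out each array. The fits were tested on simulated data. Plots were drawn with matplotlib 3.10.9.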

Additional observations from a re-analysis of the deposited data

How the results depend on the processing

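Among the 18 probe sets of the 10 genes, 0 passed with all arrays and the group alone; 1 passed with the replicate block, 2 without dim probe sets, 1 with a trended and robust variance, 3 with array weights, 3 with the high-control block, 2 in the low-control arrays and 4 with the fibroblast covariate. At the gene level 1 of 10 passed, where 4.67% of all genes did. With the replicate block 2 passed (2.56% of all genes), and 2 with a trended and robust variance (4.51%). With probe sets averaged per gene 2 passed (4.77%), 2 in the low-control arrays (5.12%) and 2 of 9 without dim probe sets (7.27%). The counts were 3 with the high-control block (8.62%), 4 with the fibroblast covariate (10.9%) and 4 with array weights (11.3%). Leaving out each array gave 0 to 1 probe sets and 0 to 2 genes. Over all genes 850 passed, and 466 with the replicate block, 2057 with array weights, 1569 with the high-control block, 1990 with the fibroblast covariate and 129 to 1191 with each array left out. Over all probe sets 1261 passed, and 731, 2495, 2366 and 3257 under the same 4 settings and 149 to 1669 with each array left out. Without probe sets named _x_at, _s_at or _a_at, 7 of the 10 genes were tested and Esrp1 alone passed; Cldn3, Epcam and Tjp1 had no other probe set.

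The replicate numbers did not pair the samples: deviations from the group means of equally numbered arrays correlated at 0.24, −0.30 and −0.10 over all probe sets. With the replicate block Esrp1 passed at 0.0200 and Cldn7 at 0.0490, while Cdh1 did not (0.0914).

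Some differences changed sign. With all arrays, those of Cdh2 (0.26) and of Nectin2 (0.44, which passed) were not near 0. Ocln was at 0.029 with array weights and 0.038 in the low-control arrays at the probe set level (gene level 0.050 and 0.038, and 0.25 with the mean of its probe sets), and −0.14 to 0.064 with each array left out. Tjp1 was at 0.00025 in the low-control arrays and −0.26 to 0.059 with each array left out. Grhl2 1431877_a_at was at −0.011 with quantile normalisation, −0.013 with median centring and −0.013 with array weights, and −0.058 to 0.080 with each array left out. Snai1 was at −0.019 with median centring, −0.0067 with array weights, −0.058 in the low-control arrays and −0.012 with the fibroblast covariate, and −0.35 to 0.30 with each array left out. Cdh2 was at −0.13 with array weights and −0.37 in the low-control arrays, and −0.24 to 0.52 with each array left out. Ctnnd1 ranged from −0.30 to 0.080 and Zeb1 from −0.025 to 0.34 with each array left out. Nectin2 was at −0.26 with the mean of its 2 probe sets, which moved in opposite directions. No cause of these changes was tested. Of 17 alternatives Nectin2 passed in 7, Jam2 in 15, Prss8 in 12, Dsp in 11, Pkp2 in 12, Foxp1, Ifitm1 and Dnmt3a in 13 each and Fndc3c1 in 12; Krt8 passed in 14 of 16. Probe sets near the median of the arrays, such as those of Ocln, limit what can be seen of a change.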
